A study of Mus musculus with 16 samples.

Results

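The ERK feedback inhibitors Dusp4, Dusp5, Dusp6, Spry2, Spry4, Spred1 and Spred2 were followed in 16 B16-OVA melanoma tumors treated with a MEK inhibitor, an agonist anti-CD40 antibody, both or neither. They were taken as every probe set whose only gene symbol in the platform annotation is one of these names, which gave 22 of 45037 probe sets and 7 of 18193 genes. The annotation gave 1 probe set each for Dusp4, Dusp5 and Dusp6, 2 for Spry2, 4 for Spry4, 8 for Spred1 and 5 for Spred2. A background level of 4.94 log2 units was taken from 44 probe sets of olfactory receptors, and 20 of the 22 had a mean signal above it. Spred1 set 1443652_x_at and Spry4 set 1422020_at lay below. Probe sets of 1 gene share their transcript and are not independent of each other.

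ERK is the last kinase of the RAS, RAF, MEK and ERK cascade through which growth factor receptors drive proliferation. Active ERK switches on the genes of its own inhibitors, so their transcripts are widely used as a readout of ERK output and of MEK inhibition, also in melanoma. DUSP4 and DUSP5 are nuclear phosphatases and DUSP6 is a cytoplasmic one, and each removes the activating phosphates from ERK. Sprouty proteins act further up, between the receptor and RAF. Spred proteins bring neurofibromin, the RAS GTPase-activating protein encoded by Nf1, to RAS at the membrane.

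The tumors grew under the skin of C57BL/6-Ly5.1 mice aged 6 to 12 weeks after injection of B16-OVA, melanoma cells of the mouse line B16 that carry the antigen ovalbumin. MEKi+CD40 mice received the MEK inhibitor GDC-0623 daily at 30 mg/kg together with an agonist antibody to CD40, which was given at days 3, 5 and 7 of treatment and once more 1 day ahead of the analysis. MEKi mice received GDC-0623 with control IgG, CD40 mice received the antibody with vehicle (MCT), and control mice received vehicle and control IgG, with 4 tumors of each group taken at day 18 after inoculation. The sample labels call the material whole tumor and the series text calls it tumor pieces, and each tumor is a mixture of melanoma and host cells. In such bulk material, fewer cells of a type and less RNA per cell cannot be told apart.

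The 16 arrays had median signals between 5.67 and 5.75 log2 units. The 9 melanocyte markers were all above background, with a mean between 13.09 and 13.50 in every tumor. Skeletal muscle markers set 3 tumors apart. Their mean over 12 genes was 11.82 in MEKi+CD40 tumor 1, 8.996 in MEKi+CD40 tumor 3 and 7.71 in CD40 tumor 3. It was 4.59 to 5.57 in the other 13, the highest being MEKi tumor 2. Of the 12 genes, 8 lay above background over all tumors and 5 in the controls. The other 13 are described below as without muscle transcripts, which means at this lower level. MEKi+CD40 tumor 1 also had the largest 3′ over 5′ difference of the Gapdh control sets (0.38 log2 units, against -0.06 to 0.08 in the other 15 tumors) and of the Actb sets (0.91, against 0.21 to 0.44). Member differences that involve the combination are given with and without the 3 that held muscle transcripts.

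The members were lowest in the MEKi+CD40 tumors, and there mainly in 1 tumor. Taking the brightest probe set of each gene as its value, the median of the 7 members minus the control mean was -0.325, -0.147, -1.37 and -0.197 log2 units in MEKi+CD40 tumors 1 to 4. It was 0.023 to 0.213 in the MEKi tumors and -0.067 to 0.045 in the CD40 tumors, and single controls ran between -0.113 and 0.205. The median of all probe sets stayed within -0.082 to 0.03 of the control mean in each tumor. Under the lowest control were 7 of 7 members in MEKi+CD40 tumor 3, 6 in tumor 1, 5 in tumor 4 and 3 in tumor 2. MEKi tumors 1 to 4 had 0, 1, 3 and 1, and CD40 tumors 1 to 4 had 1, 2, 1 and 1. The share of all genes under the lowest control in each tumor is not given here, so these counts have no background beside them.

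**Figure D1:**
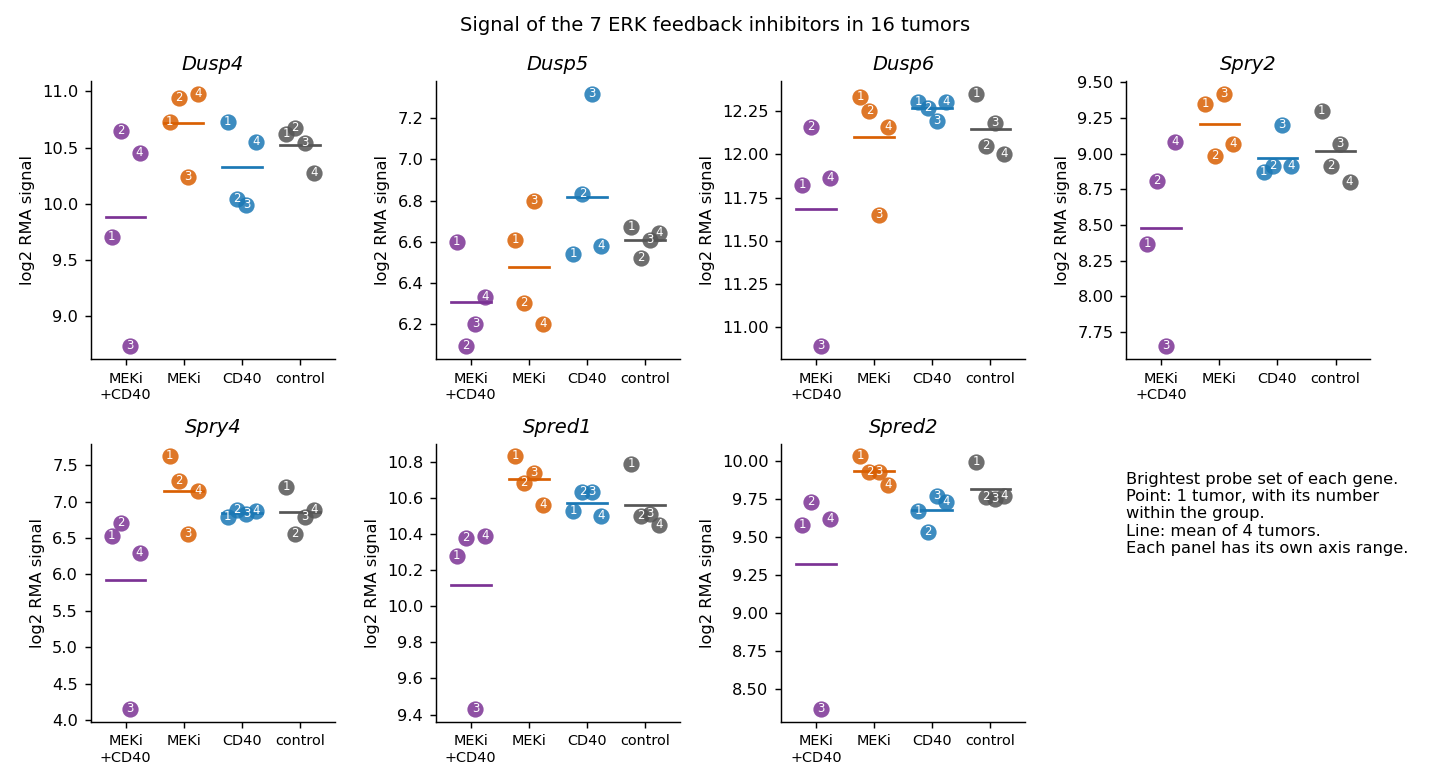
Log2 RMA signal of the brightest probe set of each of the 7 members in every tumor, with the tumor's number in its point and a line at the mean of the 4 tumors of a group (columns: MEKi+CD40, MEKi, CD40, control; each panel has its own range). The lowest point is MEKi+CD40 tumor 3 in 6 of the 7 panels, the exception being Dusp5.

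Dusp6, the cytoplasmic ERK phosphatase, had log2 signals of 11.82, 12.16, 10.89 and 11.86 in MEKi+CD40 tumors 1 to 4, 12.33, 12.25, 11.65 and 12.16 in MEKi tumors, 12.30, 12.27, 12.19 and 12.30 in CD40 tumors and 12.35, 12.05, 12.18 and 12 in controls. The CD40 tumors lay close together, and all of them lay above all MEKi+CD40 tumors, as for 6.75% of all probe sets. The group means ± SD were 11.68 ± 0.55 in MEKi+CD40 tumors, 12.10 ± 0.31 in MEKi tumors, 12.27 ± 0.05 in CD40 tumors and 12.15 ± 0.16 in controls (n = 4 each). MEKi and control tumors overlapped, and their difference was -0.048 (95% interval -0.386 to 0.291).

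Dusp4, a nuclear phosphatase that also acts on other MAP kinases, had 9.70, 10.65, 8.73 and 10.45 in MEKi+CD40 tumors 1 to 4, 10.73, 10.94, 10.24 and 10.98 in MEKi tumors, 10.73, 10.04, 9.99 and 10.55 in CD40 tumors and 10.62, 10.67, 10.54 and 10.27 in controls. The 2 low MEKi+CD40 tumors were those with muscle transcripts, and the other 2 lay within the range of the controls. Dusp4 was also low in CD40 tumors 2 and 3, of which only tumor 3 held muscle transcripts.

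Dusp5, the other nuclear phosphatase, was the only member whose brightest set was not lowest in MEKi+CD40 tumor 3. Its signals were 6.60, 6.09, 6.2 and 6.33 in MEKi+CD40 tumors 1 to 4, 6.61, 6.30, 6.80 and 6.2 in MEKi tumors, 6.54, 6.83, 7.32 and 6.58 in CD40 tumors and 6.67, 6.52, 6.61 and 6.64 in controls. Its lowest value was in MEKi+CD40 tumor 2, which held no muscle transcripts, and its highest in CD40 tumor 3. The controls lay close together, and 3 of the 4 MEKi+CD40 tumors lay below all of them.

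Spry2 had 8.37, 8.81, 7.65 and 9.08 in MEKi+CD40 tumors 1 to 4, 9.35, 8.98, 9.42 and 9.07 in MEKi tumors, 8.87, 8.91, 9.20 and 8.91 in CD40 tumors and 9.30, 8.91, 9.07 and 8.80 in controls. Its second probe set, 1421656_at, had 5.56, 6.76, 5.72 and 6.73 in MEKi+CD40 tumors, 6.96, 6.92, 6.97 and 7.07 in MEKi tumors, 6.64, 6.84, 6.79 and 6.79 in CD40 tumors and 6.88, 6.79, 6.88 and 6.62 in controls. Both sets were low in MEKi+CD40 tumors 1 and 3, and on the second set every MEKi tumor lay above every control (1 of 22 sets, against 2.35% of all).

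Spry4, a Sprouty protein that restrains RAS and RAF activation, showed the widest spread of any member in the MEKi+CD40 tumors. Its brightest set, 1445669_at, had 6.52, 6.71, 4.15 and 6.30 in MEKi+CD40 tumors 1 to 4, 7.62, 7.28, 6.55 and 7.14 in MEKi tumors, 6.79, 6.88, 6.83 and 6.87 in CD40 tumors and 7.20, 6.56, 6.79 and 6.88 in controls. The value of MEKi+CD40 tumor 3 was under the background level, and the other 15 tumors were above it. The means ± SD were 5.92 ± 1.19 in MEKi+CD40 tumors, 7.15 ± 0.45 in MEKi tumors, 6.84 ± 0.04 in CD40 tumors and 6.86 ± 0.27 in controls (n = 4 each).

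Spred1, whose loss in humans causes a syndrome related to neurofibromatosis, had 10.28, 10.38, 9.43 and 10.39 in MEKi+CD40 tumors 1 to 4, 10.83, 10.68, 10.74 and 10.56 in MEKi tumors, 10.53, 10.63, 10.63 and 10.50 in CD40 tumors and 10.79, 10.50, 10.51 and 10.45 in controls. On this brightest set all 4 MEKi+CD40 tumors lay below all other tumors, the nearest by a small gap (10.39 against 10.45 in a control). On other Spred1 sets, 1460116_s_at among them, they overlapped with the controls. Spred2 had 9.58, 9.73, 8.37 and 9.62 in MEKi+CD40 tumors, 10.03, 9.93, 9.93 and 9.84 in MEKi tumors, 9.67, 9.53, 9.77 and 9.73 in CD40 tumors and 9.99, 9.76, 9.75 and 9.77 in controls. All MEKi+CD40 tumors lay below all MEKi and control tumors and overlapped with the CD40 tumors. Of all probe sets, 8.55% were lower without overlap against control, 7.83% against MEKi and 6.75% against CD40.

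**Figure D2:**
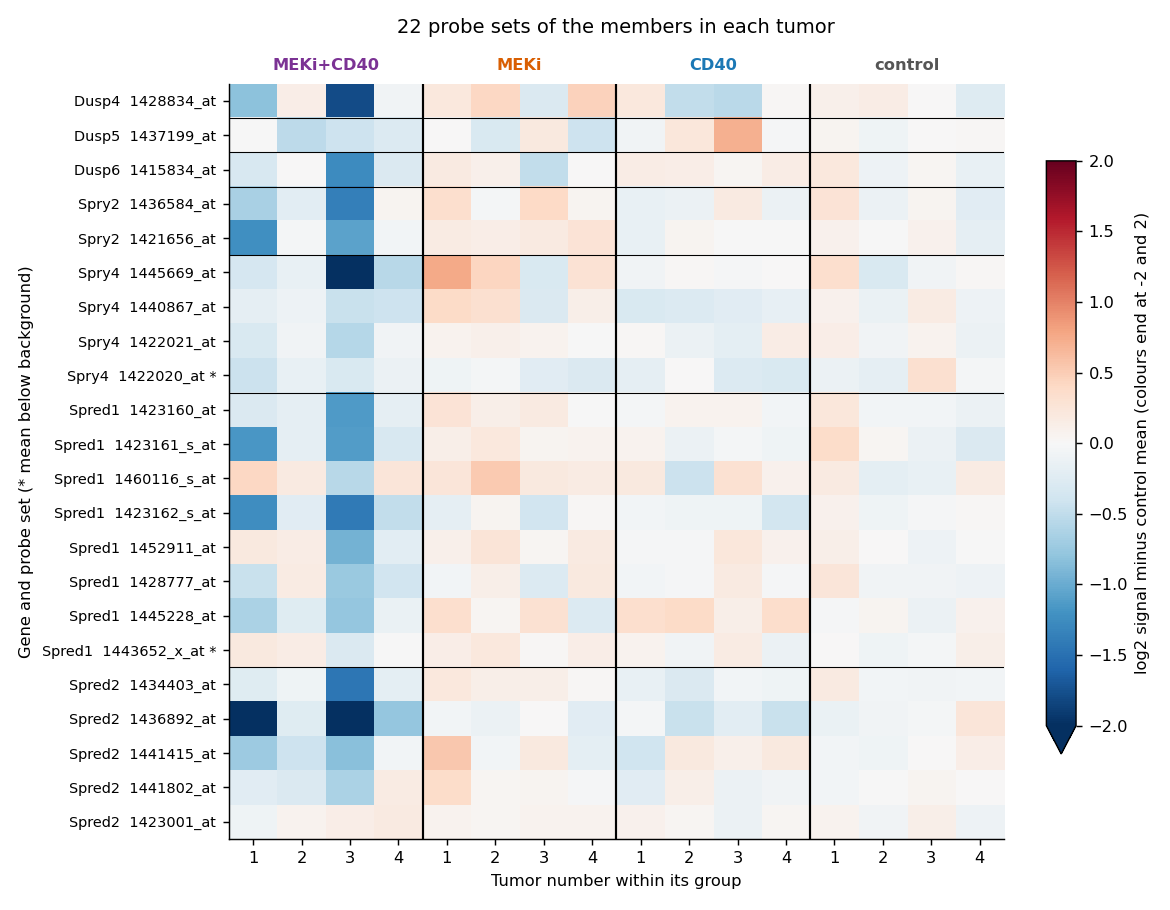
Log2 signal minus the mean of the 4 controls for all 22 probe sets (rows, grouped by gene, brightest first; an asterisk marks a mean below background) in the 16 tumors (columns); blue is lower, red is higher, and colours end at 2 units either way. The blue cells concentrate in MEKi+CD40 tumor 3, where 21 of 22 sets lay under the lowest control, and tumor 1, where 17 did. The share of all probe sets that did so is not given here.

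MEKi against control asked whether the inhibitor alone had lowered the ERK feedback transcripts at the end of treatment. No member passed the test: 0 of 22 probe sets had a Benjamini-Hochberg adjusted p under 0.05 in limma, as did 0.0% of all 45037, and 2 of 22 had an unadjusted p under 0.05, against 6.91% of all. Those 2, Spry2 set 1421656_at and Spred1 set 1460116_s_at, had positive differences (0.188 ± 0.08 and 0.277 ± 0.12, SE), as did 3.58% of all at that level. By gene, 5 of 7 differences were positive, the highest being 0.29 for Spry4 (95% interval -0.198 to 0.778), and Dusp5 and Dusp6 were negative at -0.132 and -0.048. Their median was 0.14, against -0.01 over the 12699 genes above background, and the smallest adjusted p of a gene was 0.807. The lowest end of a 95% interval among the 7 genes was -0.423, for Dusp5, and the lower ends for Dusp6, Spred1 and Spred2 were -0.386, -0.079 and -0.069.

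CD40 against control gave a similar picture. In limma 0 of 22 sets were called, as were 0.0% of all, and 3 of 22 had an unadjusted p under 0.05 (8.56% of all): Spred1 set 1445228_at was higher and Spred2 set 1436892_at and Spry4 set 1440867_at were lower. The groups did not overlap for the Spred1 set, higher (1.49% of all), and the Spry4 set, lower (3.17% of all). The gene differences ran between -0.197 for Dusp4 and 0.207 for Dusp5, with a median of -0.015, and all adjusted p were 0.685 or more. The CD40 tumors stood close together for Dusp6, Spry4 and Spred1, with SDs of 0.05, 0.04 and 0.07.

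All 7 members had lower means in MEKi+CD40 tumors than in controls, and none passed the test. Spry4 had the largest difference, -0.938 ± 0.52 (SE), which is 0.522 of the control signal, followed by Dusp4 at -0.642 ± 0.38, Spry2 at -0.542 ± 0.285, Spred2 at -0.493 ± 0.28, Dusp6 at -0.463 ± 0.25, Spred1 at -0.442 ± 0.21 and Dusp5 at -0.305 ± 0.11. The adjusted p ran between 0.17 for Dusp5 and 0.376 for Dusp4. The Spry4 value depends on its brightest set, and the mean of its 4 sets gave -0.433. The median was -0.493, against 0.017 over all genes above background. Of the 22 probe sets 0 were called in limma (0.00888% of all), 7 had an unadjusted p under 0.05, all lower (12.6% of all were lower at that level), and 19 had a negative difference (48.8% of all). The groups did not overlap for 5 sets, all lower (8.55% of all): 3 of Spred1 and 2 of Spred2.

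**Figure D3:**
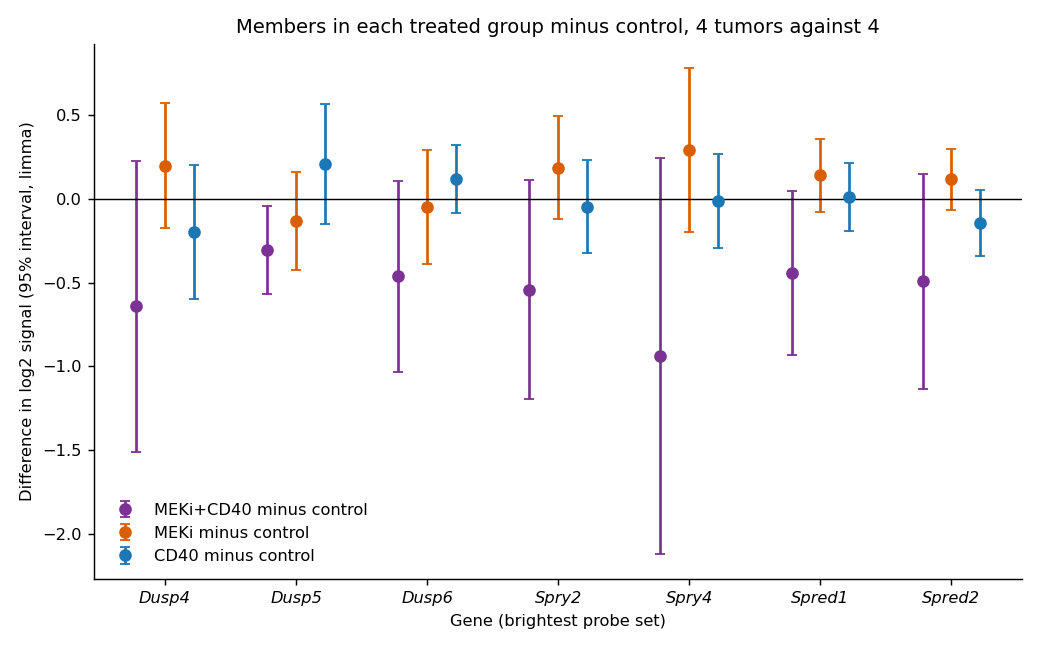
Difference in log2 signal from control (points) with its 95% interval from limma (bars) for the brightest probe set of each member, in the order MEKi+CD40, MEKi, CD40 within a gene, 4 tumors against 4. The MEKi+CD40 points lie between -0.938 and -0.305 with wide intervals, while the MEKi and CD40 points lie between -0.197 and 0.29.

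Without the 3 tumors that held muscle transcripts, the MEKi+CD40 group kept tumors 2 and 4, and most differences from control shrank. Their median was then -0.143, and 6 of 7 were negative. Dusp4 was at 0.025, Spry2 at -0.075, Dusp6 at -0.135, Spred2 at -0.143, Spred1 at -0.177 and Spry4 at -0.353. Dusp5 was the exception: its difference was -0.40 ± 0.105 (SE; adjusted p = 0.146) without them, against -0.305 with them. Leaving out only MEKi+CD40 tumor 3 gave differences between -0.347 for Spry4 and -0.174 for Spred2, against -0.938 and -0.493 with it. The combination tumors left out, 1 and 3, also had the highest fibroblast marker means of their group (12.07 and 10.71). Tumor 1 had the largest 3′ over 5′ differences too. These features leave together with the muscle transcripts and cannot be told apart here. The part of the muscle transcripts in the lower member signals was not tested. CD40 tumor 3, with a muscle mean of 7.71, had a member median of 0.045 above the control mean. Its members ran between -0.535 for Dusp4 and 0.71 for Dusp5.

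**Figure D4:**
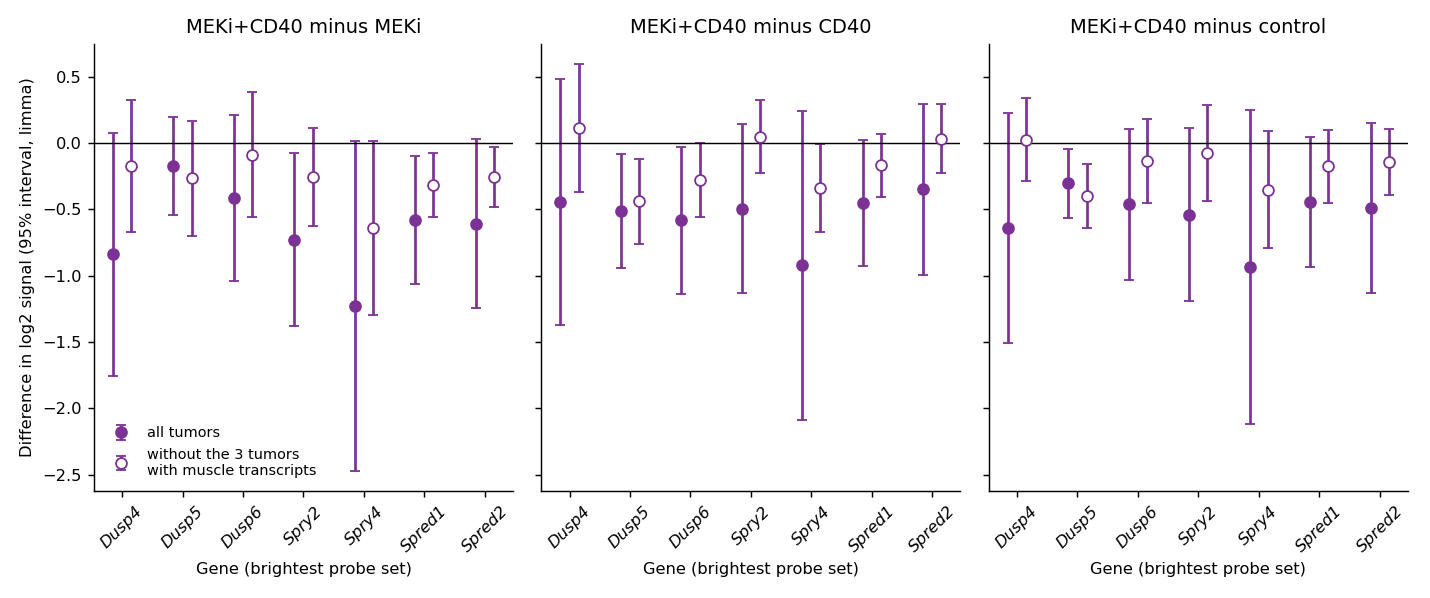
Difference in log2 signal (points, with 95% limma intervals) of MEKi+CD40 minus MEKi, CD40 and control for the 7 members, with all tumors (filled) and without the 3 tumors with muscle transcripts (open). Against control the filled points have a median of -0.493 and the open points one of -0.143, and Dusp5 alone is lower among the open points.

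Against MEKi alone, the MEKi+CD40 tumors had lower means of all 7 members, with a median of -0.608. Since the 3 comparisons of the combination share its 4 tumors, they are not independent of each other. Spry4 differed by -1.228 ± 0.54 (SE), Dusp4 by -0.84 ± 0.40, Spry2 by -0.728 ± 0.29, Spred2 by -0.608 ± 0.28, Spred1 by -0.583 ± 0.21, Dusp6 by -0.415 ± 0.27 and Dusp5 by -0.172 ± 0.16. No member was called in limma (0 of 22 sets, against 1.15% of all), and the smallest adjusted p was 0.094, for Spred1 set 1423161_s_at. At an unadjusted p under 0.05 were 10 of 22 sets, all lower, against 11.8% of all that were lower at that level. They belong to Spred1 (4 sets), Spred2 (2), Spry2 (2) and Spry4 (2). The groups did not overlap for 6 sets, all lower (7.83% of all). Without the 3 tumors with muscle transcripts, all 7 differences stayed negative with a median of -0.26, and 0 of 22 sets were called, as were 0.0% of all.

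Against CD40 alone, 1 probe set passed the test. Spred1 set 1445228_at had 4.34, 4.73, 4.21 and 4.84 in MEKi+CD40 tumors, against 5.31, 5.36, 5.09 and 5.33 with the antibody alone, and the groups did not overlap. The difference was -0.743 ± 0.15 (SE; adjusted p = 0.037). It is among the dimmest sets, with a mean of 4.965 and all 4 MEKi+CD40 tumors under the background level of 4.94, so the size of this difference is poorly measured. The call held without the 3 tumors with muscle transcripts (-0.548 ± 0.10; adjusted p = 0.0397; 3.39% of all sets called). It was lost when any of CD40 tumors 1 to 4 or MEKi+CD40 tumors 3 or 4 was left out (adjusted p up to 0.122). Calls over all sets fell too, to 0.0155%, 0%, 1.69% and 0% without CD40 tumors 1 to 4. They fell to 0.0133% and 0.162% without MEKi+CD40 tumors 3 and 4. The Spred1 call was also lost with the replicate number as a block (adjusted p = 0.0583; 0% of all called). The same held without the 3 tumors whose animal numbers lie far from the rest (adjusted p = 0.0599; 6.93% of all called). Those 3 are MEKi tumor 1 and MEKi+CD40 tumors 1 and 2, and none is a control or CD40 tumor. The called set was 1 of 22 members, against 4.74% of all probe sets. The brightest Spred1 set differed by -0.452 ± 0.21 (adjusted p = 0.256).

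The other members were also lower in MEKi+CD40 than in CD40 tumors, and none was called. Spry4 differed by -0.923, Dusp6 by -0.582, Dusp5 by -0.512, Spry2 by -0.495, Dusp4 by -0.445 and Spred2 by -0.35, with adjusted p between 0.16 and 0.585. At an unadjusted p under 0.05 were 7 of 22 sets, all lower (10.6% of all were lower at that level), and 5 sets did not overlap, all lower (6.75% of all). Without the 3 tumors with muscle transcripts Dusp4, Spry2 and Spred2 had differences of 0.11, 0.048 and 0.032, and Dusp5, Spry4 and Dusp6 had -0.44, -0.342 and -0.28.

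CD40 against MEKi compared the single treatments directly. Of the 22 sets 0 were called in limma (0.893% of all), and 3 had an unadjusted p under 0.05, all lower in CD40 tumors (8.49% of all): Spred2 set 1434403_at, Spry2 set 1421656_at and Spry4 set 1440867_at. The groups did not overlap for the Spred2 and Spry2 sets, both lower (5.34% of all). Spred2 differed by -0.257 ± 0.08 (SE; adjusted p = 0.199). Dusp5 and Dusp6 were higher in CD40 tumors by 0.34 and 0.168, and the other 5 genes were lower.

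The interaction asked whether the antibody changed the members differently with and without the inhibitor, which is the antibody's difference among inhibitor-treated tumors less that among the others, over all 16. All 7 estimates were negative, between -1.212 for Spry4 and -0.38 for Dusp5. In limma 0 of 22 sets were called, as were 0.0% of all, with 5 of 22 lower at an unadjusted p under 0.05 (7.44% of all), and the smallest adjusted p of a member was 0.107. Without the 3 tumors with muscle transcripts the estimates had a median of -0.233, against -0.593 with them.

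In the order of group means MEKi+CD40 was last for all 7 members. MEKi was first for Dusp4, Spry2, Spry4, Spred1 and Spred2, and CD40 was first for Dusp5 and Dusp6. None of the neighbours in these orders differed past the test, with adjusted p between 0.283 and 0.987.

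Over all tumors the members other than Dusp5 had high correlations with each other, which were lower without the tumors with muscle transcripts. Over the 16 tumors Spred1 and Spred2 had a Pearson r of 0.951 (Spearman 0.762), Spry4 and Spred2 one of 0.946 (0.665), Spry2 and Spred1 one of 0.939 (0.798) and Dusp6 and Spry4 one of 0.921 (0.769). Dusp5 had r between -0.134 with Dusp4 and 0.435 with Spred1. These are descriptions over tumors that share groups and, in 3 cases, muscle transcripts. In the 13 tumors without them Spred1 and Spred2 had r = 0.723, Spry2 and Spred1 0.766 and Dusp6 and Spry4 0.678, while Dusp6 and Spred2 had 0.063, Dusp4 and Spred1 0.071, Dusp4 and Spry2 0.01 and Dusp6 and Spry2 -0.222. Over all 16 the last 4 pairs had 0.817, 0.776, 0.751 and 0.714. Dusp4 and Dusp5 ran opposite ways in these 13 tumors, at -0.684. Dusp5 there had r of -0.062 with Dusp6, 0.026 with Spry4 and 0.024 with Spred2. With Spry2 and Spred1 it had 0.345 and 0.489, above the 4 low pairs without Dusp5.

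Spred1 and Spred2 had the highest Pearson r of any pair over the 16 tumors, though Spry2 and Spred1 were higher by Spearman's rho and in the 13 tumors. Dusp5 had the lowest r with the others over the 16 tumors, but not for every pair in the 13. The promoters of Dusp5, Spred1 and Spred2 are shown, from RefSeq on GRCm38.p6. Each runs from 250 bases before to 50 bases after the gene's start on the plus strand. The RefSeq table held windows for 5 of the 7 members: Dusp5, Dusp6, Spry2, Spred1 and Spred2. Capitals mark matches, on either strand, to the CArG box bound by serum response factor, to TGACG, the core of the cAMP response element, to TGANTCA, the AP-1 site, or to CCGGAA, an ETS site.
Dusp5, chr19:53528895-53529194: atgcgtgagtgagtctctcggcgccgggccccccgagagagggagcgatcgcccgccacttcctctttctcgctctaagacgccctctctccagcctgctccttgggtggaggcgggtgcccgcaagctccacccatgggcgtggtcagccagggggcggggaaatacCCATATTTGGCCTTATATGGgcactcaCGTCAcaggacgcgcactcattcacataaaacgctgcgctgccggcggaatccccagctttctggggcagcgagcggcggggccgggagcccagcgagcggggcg
Spred1, chr2:117120821-117121120: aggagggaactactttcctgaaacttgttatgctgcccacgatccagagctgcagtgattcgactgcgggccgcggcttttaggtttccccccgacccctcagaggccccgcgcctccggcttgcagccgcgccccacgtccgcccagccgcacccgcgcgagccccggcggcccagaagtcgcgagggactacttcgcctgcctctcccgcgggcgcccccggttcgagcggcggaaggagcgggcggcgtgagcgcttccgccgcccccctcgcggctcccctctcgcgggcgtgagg
Spred2, chr11:19924192-19924491: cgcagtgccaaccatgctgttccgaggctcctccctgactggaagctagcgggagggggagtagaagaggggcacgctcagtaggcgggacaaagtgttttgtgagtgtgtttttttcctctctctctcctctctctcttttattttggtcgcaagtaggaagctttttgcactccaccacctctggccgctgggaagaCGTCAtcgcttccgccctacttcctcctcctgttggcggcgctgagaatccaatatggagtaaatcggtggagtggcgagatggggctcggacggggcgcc

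The Dusp5 window held 2 adjoining CArG boxes, whose first bases lie at positions -82 and -72 from the start, and 1 TGACG match at -55. A CArG box was in 1.63% of all 32851 windows of this length, and in none of the other 4 members' windows. Spred2 held 1 TGACG match at -51 (20.8% of all windows), Spry2 held 1 CCGGAA match 34 bases past the start (14.9% of all), and the windows of Dusp6 and Spred1 held none of the 4 motifs. TGANTCA was in 7.81% of all windows and in no member's. A match describes the letters and is not a measured binding site.

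The genes outside the members whose signals ran most like theirs over the 16 tumors, of 12692 searched, differed between members. Spred1 was most like Lsm11 (r = 0.937), Myc (0.934) and Gnpnat1 (0.928), Spred2 like Gnpnat1 (0.92), Rnf138 (0.918) and Hnrnpll (0.911), and Spry4 like Nob1 (0.923), Cdc6 (0.912) and Rnf138 (0.91). Dusp4 was most like Prmt6 (0.957), Tasp1 (0.934) and Ulbp1 (0.924), Dusp6 like Mrpl3 (0.925), Ints11 (0.924) and Alkbh1 (0.918), Spry2 like Mphosph6 (0.894), Hilpda (0.891) and Snx13 (0.887), and Dusp5 like Cemip2 (0.882), Pcgf5 (0.843) and Stx3 (0.838). Without the 2 tumors farthest from the median of each member, these r ran between 0.661 for Mphosph6 with Spry2 and 0.865 for Prmt6 with Dusp4. Among the tumors left out was MEKi+CD40 tumor 3 for every member but Dusp5. Without the 3 tumors with muscle transcripts they ran between 0.537 for Hnrnpll with Spred2 and 0.839 for Ints11 with Dusp6.

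Other genes of the pathway were counted on lists. Of 21 measured ERK-induced genes outside the 2 families, 0 were called in any of the 7 comparisons. In MEKi against control 2 had an unadjusted p under 0.05 in limma (6.91% of all probe sets), and 16 were positive with a median of 0.157, against 0.007 over all genes. Against MEKi, 14 of the 21 were negative in MEKi+CD40 tumors (54.0% of all probe sets). Of these 14, 5 had an unadjusted p under 0.05 (11.8% of all were lower at that level). Etv5, an ETS factor gene induced by ERK, had signals of 4.29 to 7.96 in MEKi+CD40 tumors and 8.68 to 9.84 in MEKi tumors. These did not overlap (7.83% of all probe sets were lower without overlap). Etv5 differed by -2.79 ± 0.74 in limma (SE, adjusted p = 0.0798), and by -2.25 without the 3 tumors with muscle transcripts. Against control it differed by -2.54 ± 0.80 (adjusted p = 0.115), and by -2.0 without them. Myc differed by -1.173 ± 0.42 in MEKi+CD40 against MEKi (adjusted p = 0.165) and by -0.64 without them, and Etv4, another ETS factor gene, by -0.725 ± 0.27 (adjusted p = 0.173) and by -0.858 without them. Epha4, a receptor of ephrins, had a difference of 0.655 ± 0.17 (adjusted p = 0.0748), and 0.38 without them (adjusted p = 0.222). The Epha4 mean over all arrays was 4.859, under the background level, and the MEKi tumors were at 4.46 to 4.65. The size of the Epha4 difference is therefore poorly measured.

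Of the 11 other DUSP, Sprouty and Spred genes, in MEKi+CD40 against control, 6 were positive and 5 negative with a median of 0.105, against 0.028 over all genes, and 0 were called or had an unadjusted p under 0.05 in limma. Dusp10, a phosphatase of p38 and JNK, had the smallest p of them (0.767 ± 0.395, SE; adjusted p = 0.312), and 0.29 without the 3 tumors with muscle transcripts. Dusp1, an immediate early phosphatase, had a difference of 0.97 ± 0.37 in MEKi+CD40 against MEKi (adjusted p = 0.188), and 0.42 without the 3 tumors (adjusted p = 0.651).

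Upstream of the members, 15 of 20 listed genes of the kinase cascade and its adaptors were measured under a single symbol, and the others were not analysed here. None of the 15 was called in any comparison by limma, and 4 had an unadjusted p under 0.05 in MEKi+CD40 against control. Of these, 3 were higher, a count with no background share beside it here, and 1 was lower (12.6% of all probe sets were lower at that level). There Egfr had a difference of 0.41 ± 0.10 (SE; adjusted p = 0.0624), Sos2, a RAS exchange factor, one of 0.43 ± 0.12 (adjusted p = 0.0852), Ksr1, a scaffold of the cascade, one of 0.66 ± 0.21 (adjusted p = 0.121; 0.375 without the 3 tumors with muscle transcripts) and Nras one of -0.18 ± 0.07 (adjusted p = 0.192). Of 10 other negative regulators 0 were called with all tumors, and 3 had an unadjusted p under 0.05 in this comparison, all higher. The share of all probe sets higher at that level is not given here, so this count has no background beside it. Lztr1, an adaptor for RAS degradation, had 0.465 ± 0.11 (adjusted p = 0.0625; 0.33 without the 3 tumors). Il17rd, a receptor-like inhibitor of FGF signalling, had 0.545 ± 0.19 (adjusted p = 0.141; 0.275 without them), Lgals1, which encodes galectin-1, 0.213 ± 0.09 (adjusted p = 0.222), and Nf1, the partner of the Spred proteins, had 0.223 ± 0.11 (adjusted p = 0.294). The Il17rd mean over all arrays was 4.469, under the background level, and the controls were at 4.09 to 4.38. The size of the Il17rd difference is therefore poorly measured.

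Markers of other cells moved between tumors and groups alongside these results. Macrophage markers (9 of 9 above background) had means of 6.59 to 10.41 in MEKi+CD40 tumors, 5.35 to 8.17 in MEKi tumors, 8.71 to 10.86 in CD40 tumors and 6.89 to 9.11 in controls, and 0 of 4 keratinocyte markers were above background. Fibroblast markers (7 of 7 above background) reached 12.07 and 10.71 in MEKi+CD40 tumors 1 and 3, 11.12 in MEKi tumor 3 and 11.10 in CD40 tumor 3, against 7.83 to 9.04 in the other 12. MEKi tumor 3 held no muscle transcripts (muscle mean 4.59) and had the lowest Dusp4, Dusp6 and Spry4 of its group (10.24, 11.65 and 6.55) and the highest Spry2 and Dusp5 (9.42 and 6.80). The part of these cells in the member signals was not tested.

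**Figure D5:**
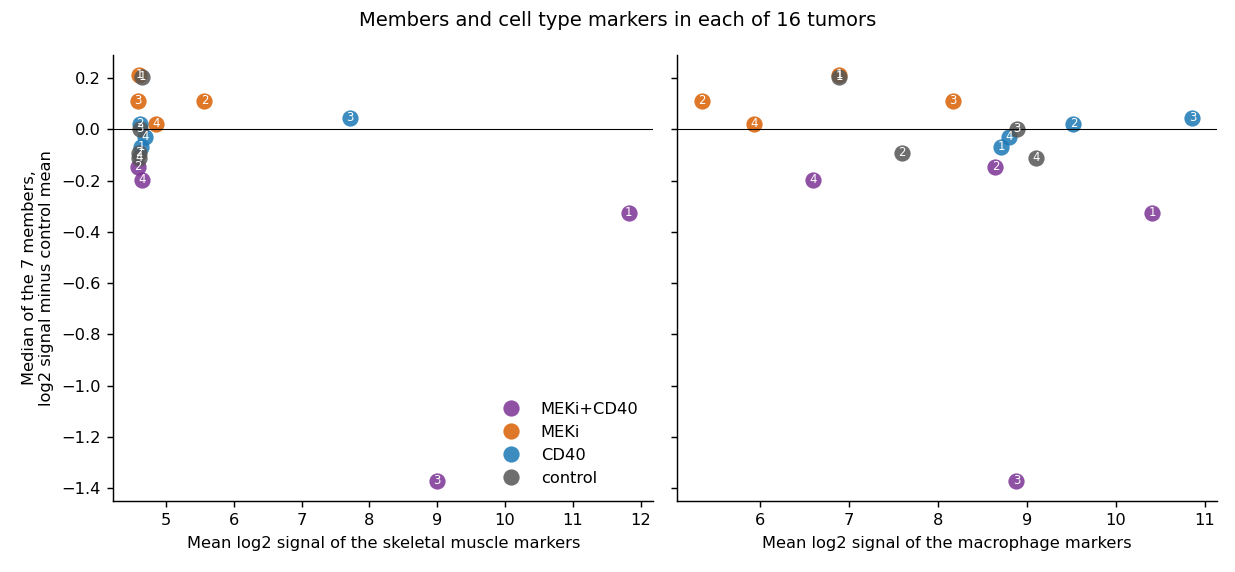
Median of the 7 members (log2 signal minus control mean, vertical axis) against the mean log2 signal of the skeletal muscle markers (left) and the macrophage markers (right) in each of 16 tumors, coloured by group and numbered within it. The lowest member median is that of MEKi+CD40 tumor 3 (-1.37), at a muscle mean of 8.996, tumor 1 is at -0.325 with the highest muscle mean (11.82), and CD40 tumor 3 is at 0.045 with 7.71.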

How the data were processed

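Per the labels and the methods, each tumor gave 200 ng of RNA, which was amplified with a 3′ IVT Plus kit and read on 1 Affymetrix mouse array. The authors made the deposited log2 values with RMA (version not given in the sources used here), rounded to 2 decimals, and they were used as deposited. Groups came from the labels. Nothing ties tumors of different groups, so p-values measure the spread between mice. Of 45101 probe sets 64 Affymetrix controls were left out, and 34945 carried 1 symbol, 932 several and 9160 none in the platform annotation. For a pair of groups the model held only their arrays, and for the interaction it held all 16, using lmFit and eBayes (limma 3.58.1, R 4.3.3) and Benjamini-Hochberg adjustment over 45037 probe sets. The brightest probe set over all arrays stood for a gene. Background was the 95th percentile of olfactory receptor sets. The fit was tested on simulated data. The members, lists, tests and alternatives were chosen with earlier results of these data known. Named genes were the members, up to 4 per list by smallest p in the comparison described, and the 3 genes most correlated with each member. Alternatives were all arrays in 1 fit, the replicate number as a block, removal of dim probe sets, the brightest set per gene, the mean of the sets of each member, array weights, robust eBayes with a trend, median centring, cyclic loess and leaving out tumors.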

Additional observations from a re-analysis of the deposited data

Results flagged for a closer look

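In 5 of 28 groups of 4 values, 1 tumor lay far from the other 3. Its gap to the nearest exceeded Dixon's 95% critical share of the group's range, which chance gives in about 1 group in 20. The 28 groups share tumors and hold members that correlate, so they are not independent. The count of 5 cannot be read against that rate. MEKi+CD40 tumor 3 was such a low value for 3 members: Spry4 at 4.15, with the nearest tumor at 6.30, Spred1 at 9.43, with the nearest at 10.28, and Spred2 at 8.37, with the nearest at 9.58. CD40 tumor 3 was a high value of Spry2 at 9.20, with the nearest at 8.91. Control tumor 1 was a high value of Spred2 at 9.99, with the nearest at 9.77. MEKi+CD40 tumor 3 and CD40 tumor 3 were 2 of the 3 tumors with skeletal muscle transcripts (muscle means of 8.996 and 7.71), and control tumor 1 was not (4.65).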

How the results depend on the processing

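The count of called members moved in 3 comparisons. In MEKi+CD40 against control (0 called) it was 3 with all 16 arrays in 1 fit (Spred1 sets 1423161_s_at and 1423162_s_at and Spred2 set 1436892_at; 10.9% of all sets called), 1 with array weights (Dusp5, adjusted p = 0.0425; 6.89% of all), and 0 to 2 on leaving out 1 tumor, with 2 without MEKi+CD40 tumor 2 (5.17% of all). In MEKi+CD40 against MEKi (0 called) it was 7 with all 16 arrays (4 of Spred1, 2 of Spred2, 1 of Spry2; 10.4% of all). In MEKi+CD40 against CD40 (1 called) it was 3 with all 16 arrays (11.8% of all), 0 with the replicate block (0 of 45037 sets called), 0 with the brightest set per gene and 0 with the mean of each member's sets beside the brightest set of other genes (8.68% of 18193 genes in both), 0 without the 3 tumors whose animal numbers lie far from the rest (6.93% of all), and 0 to 2 on leaving out 1 tumor, with 2 without MEKi+CD40 tumor 2 (4.99% of all). The Spred1 set called there in the main fit is not the brightest of its gene. It was therefore not tested in the fit with the brightest set per gene, which could not keep the call. In the fit with the mean of each member's sets it was averaged with the other Spred1 sets. The replicate numbers did not pair the tumors (correlations of same-numbered deviations between -0.517 and 0.473), and the block moved no other count of members. Some gene differences changed sign. Spred1 in CD40 against control was 0.01 and became -0.015 with median centring, -0.007 with array weights, -0.009 without the tumors with muscle transcripts and -0.028 to 0.086 on leaving out 1 tumor. Under cyclic loess Spry2 and Spry4 there were at 0.008 and 0.027, and leaving out 1 tumor gave -0.123 to 0.046 and -0.114 to 0.099. Dusp6 in MEKi against control was at 0.017 with array weights and -0.125 to 0.102 on leaving out 1 tumor. Without the tumors with muscle transcripts Dusp4 was at 0.025 in MEKi+CD40 against control (-0.642 with them), and Dusp4, Spred2 and Spry2 were at 0.11, 0.032 and 0.048 in MEKi+CD40 against CD40 (-0.445, -0.35 and -0.495 with them). With the mean of its sets Spry4 was at -0.433, -0.514 and -0.314 in MEKi+CD40 against control, MEKi and CD40. The cause of these shifts was not tested. Of the gene differences, 438 of 448 kept direction and call on leaving out 1 tumor and 506 of 518 did under the other alternatives. None of them was called in the main fits, so keeping the call meant staying uncalled. A difference that only shrank was counted as kept, so these counts do not measure how stable its size was. The 4 tumors per group and signal over background limit these results: 39.73% of probe sets and 2 of the 22 members lay under the background.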

Other observations

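Probe sets of 1 gene differed within MEKi+CD40 tumors 1 and 3. The 8 Spred1 sets minus their control means ran between -1.24 and 0.418 in tumor 1 and between -1.41 and -0.285 in tumor 3, the 5 Spred2 sets between -2.378 and -0.085 in tumor 1 and between -2.088 and 0.125 in tumor 3, and the 4 Spry4 sets between -0.432 and -0.18 in tumor 1 and between -2.707 and -0.312 in tumor 3. In tumor 1, Spred2 set 1436892_at minus its control mean was at -2.378 log2 units and the brightest Spred2 set at -0.237, while in tumor 3 they were at -2.088 and -1.447. For Spred1 in tumor 1, sets 1423161_s_at and 1423162_s_at were at -1.165 and -1.24 and the brightest set at -0.283, while sets 1460116_s_at and 1452911_at were at 0.418 and 0.202. In tumor 3 the same 5 sets lay between -1.41 and -0.553. Tumor 1 was the tumor with the largest 3′ over 5′ difference of the Gapdh and Actb control sets (0.38 and 0.91), and tumor 3 had 0.0 and 0.33. The part of RNA quality in the differences between probe sets was not tested.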
